A study of Mus musculus with 26 samples.

Results

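The Frizzled family, the receptors that bind Wnt proteins at the cell surface, was followed through 18 RNA libraries of cultured mouse osteoblasts, the bone-forming cells. The members were the rows Fzd1 to Fzd10 of the deposited count table, 10 of its 26264 gene rows, and all 10 passed the filter on low counts (about 10 counts in at least 3 libraries), as did 16566 genes in all. The libraries formed 6 groups of 3, and the cells of every group were isolated from the femur of C57BL/6J mice and grown in culture. CON-OLD-iBP was the old control of the knockout line (Ocncre Ai14) given iBP, an agent the labels do not expand. CKO-OLD and CKO-YOUNG carried Kdm2b fl/fl, Ocncre and the Ai14 reporter, which removes the CxxC domain of Kdm2b where the osteocalcin promoter drives Cre, that is, in cells that express or once expressed that mature osteoblast gene. CON-YOUNG carried Ocncre and Ai14 with no floxed Kdm2b. OLD and YOUNG carried neither, and came from mice of 18 and 3 months. For the knockout line the titles say only young or old. OLD stood as the reference for CKO-OLD and CON-OLD-iBP, since an untreated old Ocncre Ai14 group was not analysed here, so Cre and reporter differ in those comparisons too. The other 8 of the 26 samples, H2AK119ub1 CUT&Tag libraries, were not analysed here. Whether replicates of a group were separate mice or cultures is not stated in the labels, and every p below rests on the spread among libraries, which may be technical.

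Frizzled proteins span the membrane and hold an outer cysteine-rich domain that takes up the lipid of a Wnt ligand. With the co-receptors Lrp5 and Lrp6 they recruit Dishevelled and stabilise beta-catenin, and with other partners they orient cells by the planar cell polarity route. In bone, Wnt signalling favours the formation of osteoblasts and restrains osteoclasts. Kdm2b is the subunit of the Polycomb complex PRC1.1 that binds unmethylated CpG through its CxxC domain, and that complex places ubiquitin on histone H2A. The series title sets inhibition of PRC1.1 beside Wnt signalling in bone, and the comparisons below ask how the receptors of that pathway stood in each group.

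Each library held 46272076 to 77698781 counted reads, so that 1 count was worth 0.0127 to 0.0203 CPM (the usual per-library count scale, here with TMM-adjusted library sizes). The libraries were placed here in 3 sets. Set 3 was split off by the nuclear RNA Malat1 and crosses the groups, while sets 1 and 2 divide the rest by group name. Set 3 held the libraries above 0.05% Malat1 (all of CON-OLD-iBP and CKO-OLD, CKO-YOUNG 3, CON-YOUNG 3, OLD 2 and YOUNG 3), set 2 the other CKO-YOUNG and CON-YOUNG libraries and set 1 the other OLD and YOUNG libraries. The 16 macrophage and monocyte markers summed to 134.5 to 195.3 CPM in set 2, 435.6 to 5394 CPM in set 3 and 9184 to 14530 CPM in set 1, with none of the 16 at 0 in any set. Kdm2b reads over the whole gene came to 51.5, 58.2 and 27.6 CPM in CKO-YOUNG and 48.8, 52.9 and 19.9 CPM in CON-YOUNG, and to 23.4, 57.2 and 28.4 CPM in CKO-OLD and 34.3, 19.3 and 31.1 CPM in OLD, which overlap and do not check the loss of 1 domain. None of the 12 osteoblast markers was at 0 throughout a group and their sum lay between 15590 and 67020 CPM, but osteocalcin, whose promoter drives the Cre, was at or near 0 in most young libraries of the Cre line. The CKO-YOUNG libraries held 0.152, 0 and 0.306 CPM of Bglap and the CON-YOUNG libraries 0.15, 0 and 9.88 CPM, while it lay between 25.2 and 83.5 CPM in CKO-OLD, CON-OLD-iBP, OLD and YOUNG. Its near copy Bglap2, with which it can share reads, had 0, 0 and 1.97 CPM in CKO-YOUNG and 0, 0.0735 and 13.4 CPM in CON-YOUNG, against 35.2 to 110 CPM elsewhere. The part of this difference in the comparisons that involve those 2 groups was not tested. OLD 1 and OLD 3 were the most alike pair of libraries within a group and set, with a median squared difference of 6.13 times counting noise against 15.4 to 77.7 times in the other pairs, and were kept as separate libraries.

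No transcript lengths of the files' build were at hand, so levels are compared between libraries of 1 gene and never between genes. The summed Frizzled level was 488, 496 and 423 CPM in CKO-YOUNG and 543, 443 and 319 CPM in CON-YOUNG. The CKO-OLD libraries had 326, 452 and 474 CPM and the OLD libraries 280.5, 399.7 and 281 CPM. The sum was 288, 408 and 204 CPM after iBP and 279.6, 336 and 386 CPM in YOUNG. The summed level of each knockout group overlapped that of the group it was set against. Among the members, Fzd1 kept the narrowest range over the 18 libraries, with a coefficient of variation of 22.9%, and Fzd9 the widest, with 165%.

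**Figure D1:**
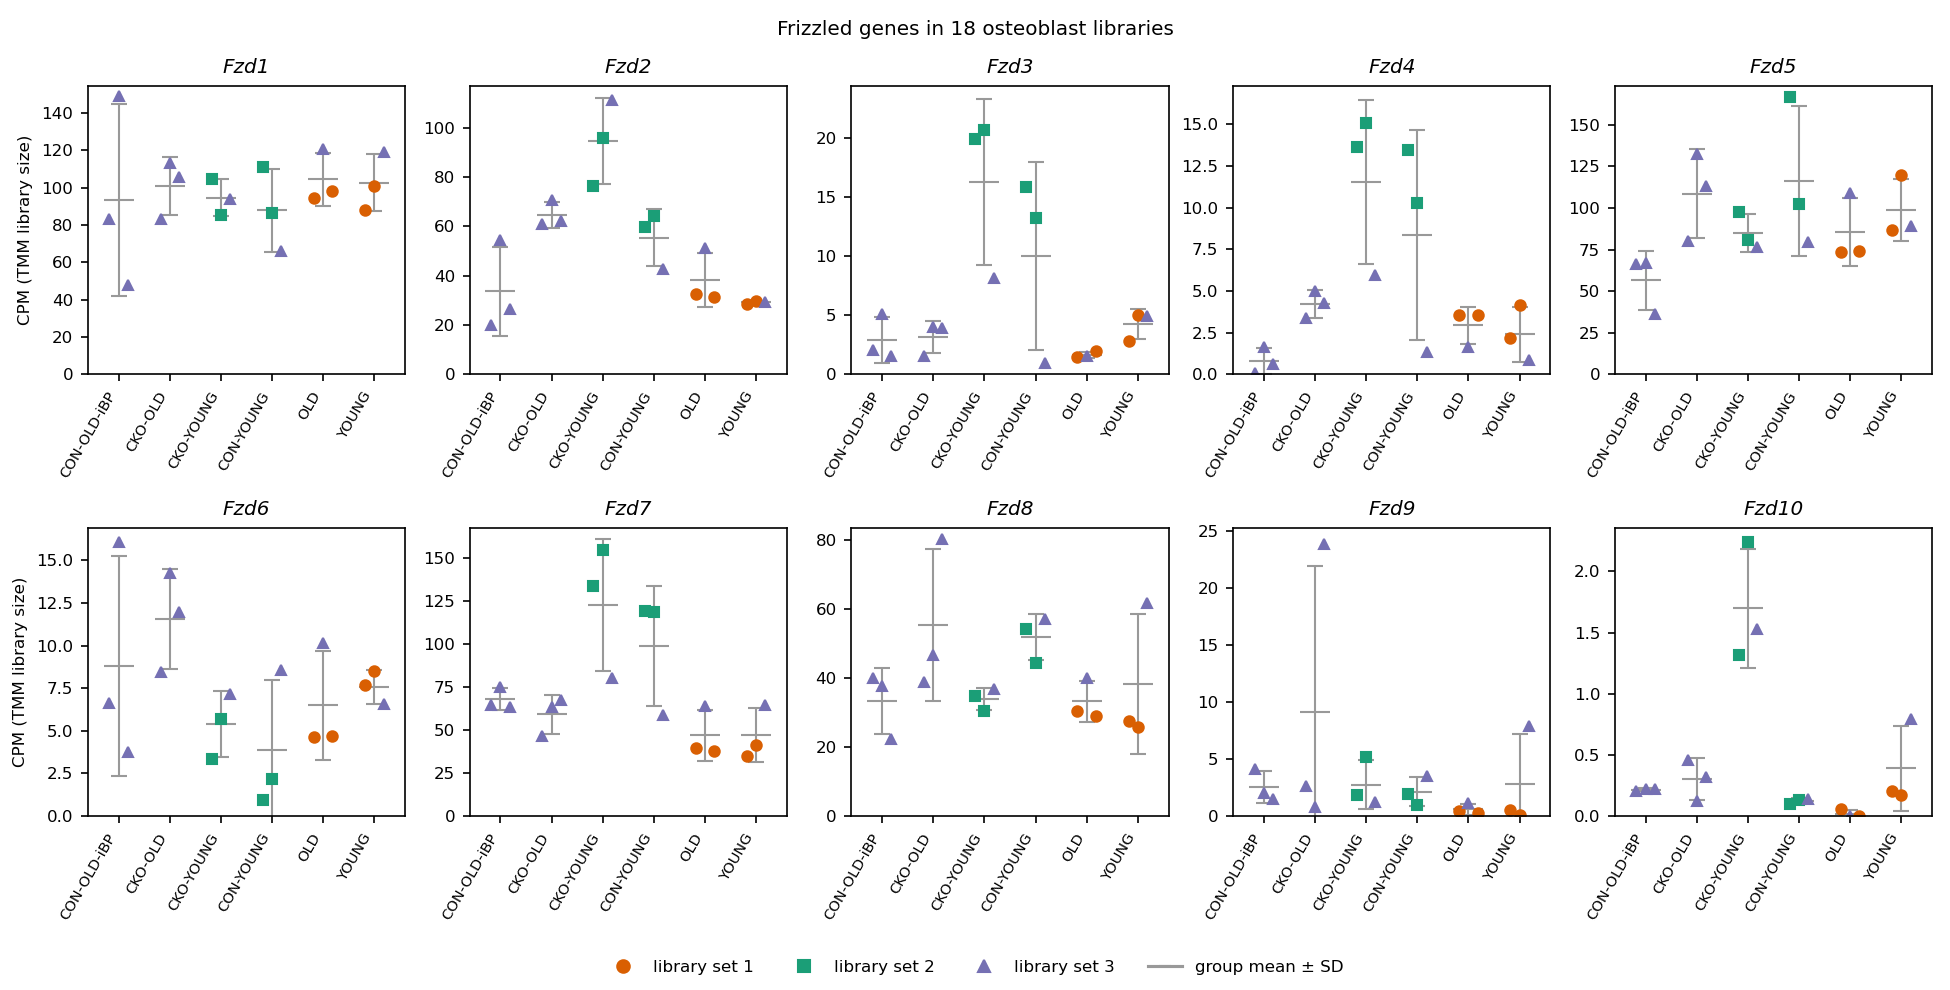
Level of each Frizzled gene in CPM (vertical axis, linear, starting at 0) in the 3 libraries of each of the 6 groups. Points are libraries, coloured by library set, and grey lines are the group mean ± SD (n = 3). The 3 CKO-YOUNG libraries stand above all others for Fzd10. The 4 set 2 libraries stand above the other 14 for Fzd3, Fzd4 and Fzd7, as in 11.3% of all genes tested.

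Fzd10 was the member with the clearest difference in the knockout. Fzd10, the closest relative of Fzd9, is known in mouse from the embryonic neural tube and limb bud. CKO-YOUNG held 78, 127 and 105 Fzd10 reads (1.7 ± 0.484 CPM, SD, n = 3), against 6, 7 and 8 reads in CON-YOUNG (0.124 ± 0.022 CPM). CKO-OLD held 23, 7 and 18 reads (0.302 ± 0.171 CPM), against 4, 0 and 0 reads in OLD (0.0193 ± 0.0335 CPM). Each knockout group therefore lay wholly above the group it was set against, as 5.32% of genes tested did in young and 8.9% in old cells. CKO-OLD 2 lay below CON-YOUNG 2 and CON-YOUNG 3. The 0 counts of OLD 2 and OLD 3 allow levels up to 0.0531 and 0.0447 CPM (3 counts in each library, counting error only).

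Taken over both ages, with CKO-YOUNG and CKO-OLD set against CON-YOUNG and OLD at equal weight, Fzd10 rose by 3.77 on the log2 scale (SE 0.76), a fold of 13.6, with an adjusted p of 0.0407 by edgeR's quasi-likelihood test. It was the only Frizzled gene past the threshold of 0.05 among 10, where 0.531% of all genes tested passed it, 0.519% of them upward. DESeq2 gave 3.85 with an adjusted p of 1.71e-06 and called 2.49% of all genes. The call was fragile in edgeR: the adjusted p lay between 0.055 and 0.116 when any 1 of 11 of the 12 libraries was left out. It stayed under 0.05 only without OLD 1, the library that held all 4 OLD reads, where the difference was 5.45, a fitted value that then depends on the prior count. It was 0.0648 in a fit of the 4 groups alone, 0.13 with a replicate block (4.06), 0.134 with a term for library set (3.41) and 0.196 without set 1 (5.42), with the sign unchanged in each. Within set 3 alone it passed at 0.0396, where 6.58% of all genes tested passed and OLD was represented by OLD 2 with 0 reads.

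In young cells the Fzd10 difference was 3.75 (SE 1.04, edgeR adjusted p = 0.353, DESeq2 adjusted p = 0.000527). Within library sets it was 3.94 in set 2 (edgeR adjusted p = 0.203) and 3.40 in set 3 (edgeR adjusted p = 0.213), above in both sets. In old cells it was 3.78 (SE 1.10, edgeR adjusted p = 0.400, DESeq2 adjusted p = 0.026). Only OLD 2 shares a set with CKO-OLD, and it held 0 reads against 23, 7 and 18 in CKO-OLD. None of the 5 marker lists (osteoblast, macrophage and monocyte, endothelial, chondrocyte, adipocyte and marrow stroma) had summed levels that separated CKO-YOUNG from CON-YOUNG or CKO-OLD from OLD. The macrophage and monocyte sum, for example, was 134.5 to 879.3 CPM in CKO-YOUNG and 185.8 to 435.6 CPM in CON-YOUNG, and 1236 to 5394 CPM in CKO-OLD and 1286 to 10140 CPM in OLD. Over both ages 0 of the 16 macrophage and monocyte markers had a positive log2 difference (13 of 16 in young and 0 of 16 in old cells) and none of the 16 passed in edgeR. Of the 12 osteoblast markers, 0 were positive in young cells (median -0.49) and 10 in old cells (0.37). For the 7 adipocyte and marrow stroma markers it was 2 (-0.25) and 1 (-1.19). Of 9 tested endothelial markers it was 7 (0.62) and 4 (-0.20), and of the 9 chondrocyte markers 2 (-2.01) and 7 (2.01). None of these passed in edgeR at either age. The part of the 5 lists in the Fzd10 difference was not tested.

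The other groups place these Fzd10 levels. CON-OLD-iBP held 10, 12 and 11 reads (0.215 ± 0.0114 CPM), all above OLD as were 14.3% of genes tested, a difference of 3.30 (SE 1.09, edgeR adjusted p = 0.0955, DESeq2 adjusted p = 0.0166). With a term for library set it was 2.58 (edgeR adjusted p = 0.579). The macrophage and monocyte markers summed to 496.9 to 873 CPM in CON-OLD-iBP and 1286 to 10140 CPM in OLD, and their part in this difference was not tested. OLD in turn lay wholly below YOUNG, which held 16, 12 and 41 reads (0.39 ± 0.349 CPM), as did 5.63% of genes tested, a difference of -4.14 (SE 1.11, edgeR unadjusted p = 0.00202, adjusted p = 1, DESeq2 adjusted p = 0.0242). Within set 1 that difference was -2.61 (edgeR adjusted p = 0.527). These comparisons and CKO-OLD against OLD share the same 3 OLD libraries, which hold 4 Fzd10 reads in all, so the low level of OLD enters each of them. CKO-OLD also lay wholly below CKO-YOUNG, as did 15.2% of genes tested (-2.48, SE 0.98, edgeR adjusted p = 0.144, DESeq2 adjusted p = 0.0185). CON-YOUNG lay wholly below YOUNG, as did 13% of genes tested (-1.63, SE 0.97, edgeR adjusted p = 0.332), a difference that was -0.63 without YOUNG 3. In bulk RNA, fewer cells with a transcript and less of it per cell cannot be told apart.

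The lncRNA gene Fzd10os is the neighbour of Fzd10 on the opposite strand in RefSeq, where the annotated spans do not overlap. It had 25, 25 and 47 reads in CKO-YOUNG and 0 reads in each CON-YOUNG library. It had 0, 8 and 12 reads in CKO-OLD, 10, 0 and 0 in CON-OLD-iBP, 0 in each OLD library and 0, 8 and 8 in YOUNG. The opposite-strand gene was thus highest in the same group as Fzd10, and no comparison of it passed the threshold in edgeR. Outside CKO-YOUNG it reached 10 reads only in CKO-OLD 3 and CON-OLD-iBP 1. It therefore passed the filter on low counts only through the group where it was highest, and that place is not independent of the filter. Whether reads were counted by strand is not given in the sources used here, so reads near the starts of these 2 genes may not have been told apart.

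Among the 12705 genes with a mean of at least 1 CPM, the log2 CPM of Synm, an intermediate filament gene, followed Fzd10 most closely over the 18 libraries (Pearson r = 0.821, Spearman rho = 0.667). Fbxl16, an F-box protein gene, came next (r = 0.789, rho = 0.720), then Nkx6-1, a homeodomain transcription factor gene (r = 0.782, rho = 0.692). These are descriptions over libraries that share groups and sets, and carry no test.

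The promoters of Fzd10 and of Fzd1 are shown because Kdm2b binds CpG, Fzd10 is the member called in the knockout and Fzd1 is the steadiest member. RefSeq promoters of the GRCm38.p6 build (250 bases before to 50 after the start) matched 6 of the 10 members, and each CG of the sequence is in capitals, 5′ to 3′ on the gene's strand.
Fzd10, chr5:128600856-128601155, plus strand: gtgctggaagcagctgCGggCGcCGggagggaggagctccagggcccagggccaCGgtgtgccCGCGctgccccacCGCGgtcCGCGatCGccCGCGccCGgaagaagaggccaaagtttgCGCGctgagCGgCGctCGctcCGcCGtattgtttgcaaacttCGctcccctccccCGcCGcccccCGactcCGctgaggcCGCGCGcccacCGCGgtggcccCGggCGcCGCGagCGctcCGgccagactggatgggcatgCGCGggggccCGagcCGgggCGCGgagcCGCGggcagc
Fzd1, chr5:4758167-4758466, minus strand: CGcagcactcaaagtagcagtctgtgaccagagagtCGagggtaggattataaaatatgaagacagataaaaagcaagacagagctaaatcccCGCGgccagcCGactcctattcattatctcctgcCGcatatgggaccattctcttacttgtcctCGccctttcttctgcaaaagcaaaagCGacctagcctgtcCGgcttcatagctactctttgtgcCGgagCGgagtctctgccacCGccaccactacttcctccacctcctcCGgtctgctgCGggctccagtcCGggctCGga
The Fzd10 window held 45 CG pairs, a number that 1.93% of the 32851 promoters of that table reach, and was 77.7% G and C. The Fzd1 window held 16 CG pairs, which 33% of promoters reach, and the median promoter held 7. The other matched members held 53 (Fzd9), 38 (Fzd5), 32 (Fzd4) and 24 (Fzd7) CG pairs, so Fzd9, which did not pass the threshold in the knockout, had more than Fzd10. The letters CTTTGA, the core that Tcf and Lef factors bind, were searched on both strands and lay only in the Fzd1 window, 1 of the 6, against 16% of all promoters. Such matches describe the letters of these windows only.

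Fzd2 belongs with Fzd1 and Fzd7 to the branch best known for beta-catenin signalling, and changes in human FZD2 shorten the limbs. The CKO-YOUNG libraries gave 76.4, 95.9 and 111 CPM of Fzd2, against 59.8, 64.1 and 42.5 CPM in CON-YOUNG. The CKO-OLD libraries gave 60.9, 70.7 and 62.3 CPM, against 32.4, 51.0 and 31.3 CPM in OLD. As with Fzd10, each knockout group lay wholly above the group it was set against, as 5.32% of genes tested did in young and 8.9% in old cells. The difference was 0.77 in young cells (SE 0.30, edgeR adjusted p = 0.730) and 0.76 in old cells (SE 0.30, edgeR adjusted p = 0.578). Over both ages it was 0.76 (SE 0.21, edgeR unadjusted p = 0.00282, adjusted p = 0.181), which did not pass the threshold, and DESeq2 gave 0.77 with an adjusted p of 0.0355. Within library sets the young difference was 0.48 in set 2 and 1.39 in set 3, and the old difference within set 3 was 0.34, with edgeR adjusted p of 0.909, 0.115 and 1.

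CON-OLD-iBP held 20.1, 54.3 and 26.4 CPM of Fzd2, wholly below CKO-OLD as were 16% of genes tested, a difference of -0.94 (SE 0.30, edgeR adjusted p = 0.114, DESeq2 adjusted p = 0.0499). Without CON-OLD-iBP 2, the highest library of that group, it was -1.50 with an edgeR adjusted p of 0.0182. Within set 3 (-0.94) the edgeR adjusted p was 0.0374, where 18.7% of all genes tested passed, and with a term for library set (-0.94) it was 0.0572, which missed the threshold. YOUNG held 28.4, 29.7 and 29.4 CPM, the narrowest spread of any group, and OLD lay wholly above it, as did 5.73% of genes tested (0.39, SE 0.30, edgeR adjusted p = 1). CON-YOUNG lay wholly above YOUNG, as did 10.1% of genes tested (0.93, SE 0.30, edgeR adjusted p = 0.0864, DESeq2 adjusted p = 0.044), and both are labelled young.

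**Figure D2:**
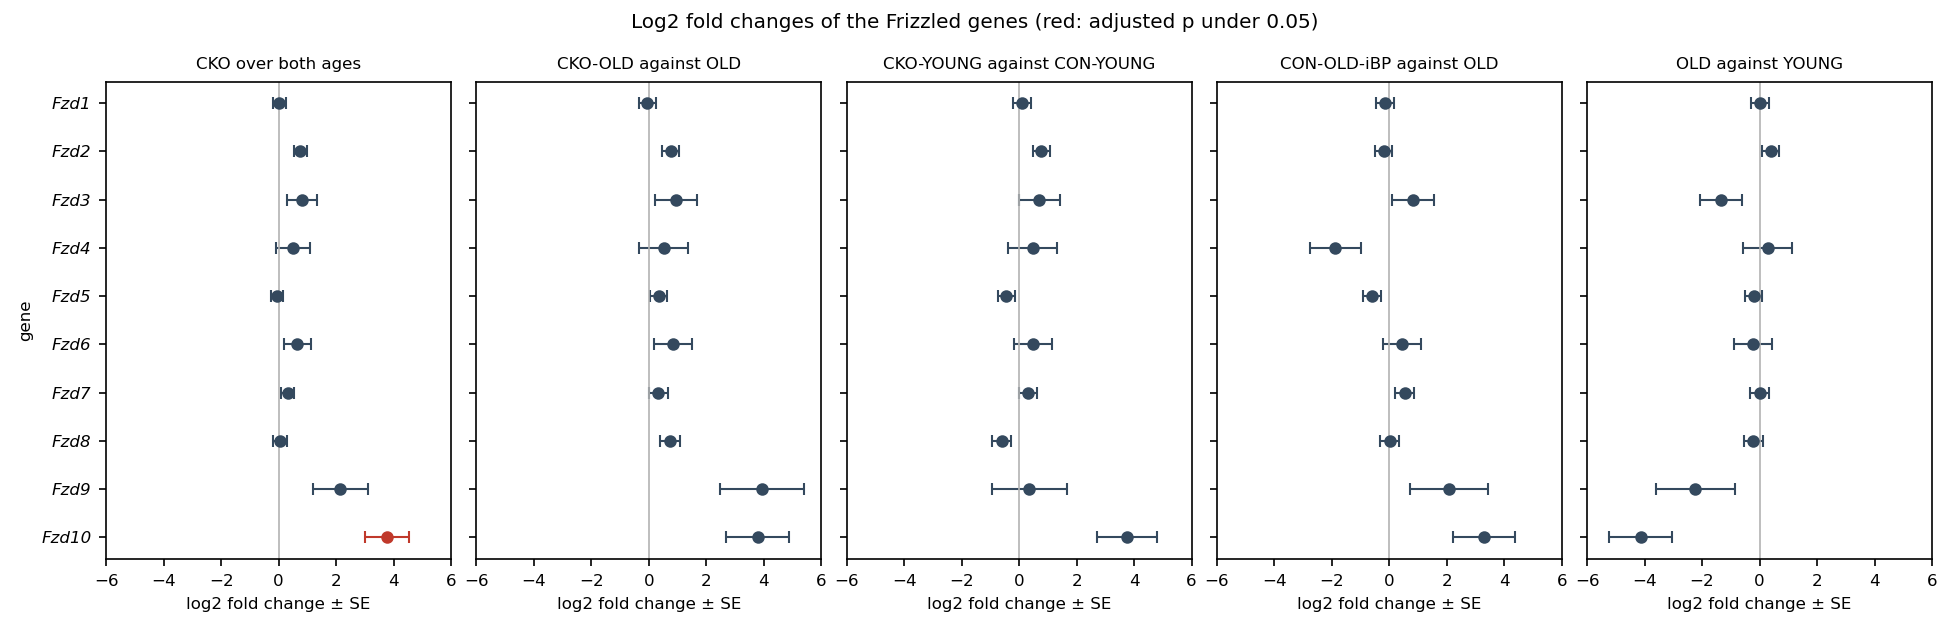
Log2 fold change ± SE of each Frizzled gene (rows) in 5 comparisons by edgeR over all 18 libraries (horizontal axis, first-named group over the second). Red marks the one value past an adjusted p of 0.05, Fzd10 in the knockout over both ages at 3.77. Fzd2 is at 0.77 in young and 0.76 in old cells, and Fzd8 is at -0.61 in young and 0.74 in old cells.

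Fzd1 had no comparison past the threshold or with separate groups. It averaged 94.8 ± 9.76 CPM in CKO-YOUNG and 87.9 ± 22.4 CPM in CON-YOUNG (SD, n = 3 each). The mean was 101 ± 15.7 CPM in CKO-OLD and 93.4 ± 51.5 CPM after iBP, against 104 ± 14.2 CPM in OLD. YOUNG averaged 103 ± 15.5 CPM. Both the lowest and the highest Fzd1 level, 47.9 and 149 CPM, were in CON-OLD-iBP libraries.

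Fzd7, known in mouse and human for its part in stem and progenitor cells, followed the library sets. CKO-YOUNG had 134, 155 and 80.4 CPM of it, against 119, 119 and 58.7 CPM in CON-YOUNG. In both groups replicate 3, the set 3 library, was the lowest. CKO-OLD had 46.4, 63.7 and 67.5 CPM, against 39.5, 64.0 and 37.6 CPM in OLD. The iBP-treated cells had 64.9, 75.2 and 63.5 CPM and YOUNG had 35.2, 41.4 and 64.9 CPM. The 4 set 2 libraries held 118.6 to 154.6 CPM and the other 14 held 35.2 to 80.4 CPM, with no overlap, as in 11.3% of all genes tested. CON-YOUNG against YOUNG gave 1.07 (SE 0.32, edgeR adjusted p = 0.0671, DESeq2 adjusted p = 0.0224), but -0.08 with a term for library set and -0.15 within set 3. CKO-OLD against CKO-YOUNG gave -1.05 (SE 0.32, edgeR adjusted p = 0.0842, DESeq2 adjusted p = 0.0289), against -0.44 within set 3 (edgeR adjusted p = 0.249). The macrophage and monocyte markers moved along with these comparisons, summing to 185.8 to 435.6 CPM in CON-YOUNG against 3499 to 14530 CPM in YOUNG, and to 1236 to 5394 CPM in CKO-OLD against 134.5 to 879.3 CPM in CKO-YOUNG, and their part in the Fzd2, Fzd3, Fzd7 and Fzd10 differences was not tested. Set 2 holds only CKO-YOUNG and CON-YOUNG libraries, so set 2 and those groups cannot be told apart outside replicate 3.

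Fzd3 and Fzd6 form the branch tied to planar cell polarity, with Fzd3 needed for axon guidance and Fzd6 for hair orientation in mouse. In CKO-YOUNG the Fzd3 level was 19.9, 20.7 and 8.19 CPM, against 15.8, 13.2 and 0.969 CPM in CON-YOUNG. CON-YOUNG 3 was the lowest of all 18 libraries and CKO-YOUNG 2 the highest. In CKO-OLD it was 1.59, 4.03 and 3.91 CPM, against 1.49, 1.56 and 1.96 CPM in OLD. It was 2.08, 5.14 and 1.56 CPM after iBP and 2.83, 5.04 and 4.92 CPM in YOUNG. The set 2 libraries (13.2 to 20.7 CPM) lay above the other 14 (0.969 to 8.19 CPM), as in 11.3% of all genes tested. CKO-OLD lay wholly below CKO-YOUNG, as did 15.2% of genes tested (-2.35, SE 0.75, edgeR adjusted p = 0.0928, DESeq2 adjusted p = 0.0161). Within set 3 the Fzd3 difference was -1.36. OLD lay wholly below YOUNG, as did 5.63% of genes tested (-1.35, SE 0.73, edgeR adjusted p = 1), with -1.19 in set 1 and -1.66 in set 3. Over both ages the knockout difference of Fzd3 was 0.81 with overlapping groups (edgeR adjusted p = 0.764). Within set 3, where CKO-YOUNG, CON-YOUNG and OLD have 1 library each, it was 2.05 and passed (edgeR adjusted p = 0.0487), as did 6.58% of all genes tested.

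Fzd6 ran against this pattern. In CKO-YOUNG the Fzd6 level was 3.33, 5.72 and 7.13 CPM, against 0.952, 2.15 and 8.58 CPM in CON-YOUNG. In CKO-OLD it was 8.45, 14.2 and 12.0 CPM, against 4.62, 10.2 and 4.69 CPM in OLD. It was 6.61, 16.1 and 3.77 CPM after iBP and 7.66, 8.51 and 6.55 CPM in YOUNG. The set 2 libraries (0.952 to 5.72 CPM) included the 3 lowest, and overlapped the other 14 (3.77 to 16.1 CPM). CKO-OLD lay wholly above CKO-YOUNG, as did 16.3% of genes tested (1.10, SE 0.66, edgeR adjusted p = 0.316), a difference that came to -0.03 with a term for library set and to 0.70 within set 3. Over the 18 libraries the log2 CPM of Fzd3 correlated with that of Fzd7 at r = 0.801 and with that of Fzd6 at r = -0.434, a description of libraries that share sets.

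Fzd4, which also serves as the receptor of norrin in retinal vessels, had the lowest levels in iBP-treated cells. CON-OLD-iBP had 0.0808, 1.65 and 0.649 CPM of it, against 3.56, 1.66 and 3.58 CPM in OLD. CON-OLD-iBP lay wholly below OLD (-1.88, SE 0.88, edgeR adjusted p = 0.215), where 15.8% of genes tested did so. That difference was -0.83 with a term for library set, -1.06 within set 3 and -3.04 without CON-OLD-iBP 2. CKO-OLD held 3.38, 5.03 and 4.27 CPM, and CON-OLD-iBP lay wholly below it too, as did 16% of genes tested (-2.41, SE 0.90, edgeR adjusted p = 0.168, DESeq2 adjusted p = 0.0474). Both of these groups lie in set 3, and the difference passed the threshold in the fit within that set (-2.40, edgeR adjusted p = 0.0269), where 18.7% of all genes tested passed it, and with a term for library set (-2.40, edgeR adjusted p = 0.039), where 12.3% did. The 16 macrophage and monocyte markers summed to 496.9 to 873 CPM in CON-OLD-iBP, with none of the 16 at 0. They summed to 1236 to 5394 CPM in CKO-OLD and 1286 to 10140 CPM in OLD. All 12 osteoblast markers were negative in CON-OLD-iBP against CKO-OLD (median -0.67), 5 with an edgeR unadjusted p under 0.05 (19.6% of genes) and none past the threshold. Their sums overlapped, at 15590 to 33290 CPM in CON-OLD-iBP and 29100 to 40570 CPM in CKO-OLD. Against OLD, 5 of the 12 were positive and 7 negative (median -0.23). The part of both lists in the Fzd2, Fzd4 and Fzd5 differences was not tested.

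The young groups set the upper end of Fzd4. CKO-YOUNG had 13.7, 15.1 and 5.94 CPM, against 13.4, 10.3 and 1.33 CPM in CON-YOUNG, where the set 3 library was again the lowest of each group. YOUNG held 2.21, 4.13 and 0.869 CPM. The set 2 libraries (10.3 to 15.1 CPM) lay above the other 14 (0.0808 to 5.94 CPM), as in 11.3% of all genes tested. Thus 4 libraries of 2 groups hold the high levels. CKO-OLD lay wholly below CKO-YOUNG, as did 15.2% of genes tested (-1.45, SE 0.86, edgeR adjusted p = 0.307). The Fzd4 difference came to 0.01 with a term for library set and to -0.49 within set 3.

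Fzd5 and Fzd8 form a further pair, and in mouse Fzd8 restrains the formation of osteoclasts. CON-OLD-iBP had 66.3, 66.8 and 36.2 CPM of Fzd5. This was wholly below the 80.0, 133 and 113 CPM of CKO-OLD, as were 16% of genes tested. It was also wholly below the 73.5, 109 and 74.4 CPM of OLD, as were 15.8%. The difference was -0.94 from CKO-OLD (SE 0.30, edgeR adjusted p = 0.110, DESeq2 adjusted p = 0.0405) and -0.60 from OLD (SE 0.30, edgeR adjusted p = 0.236). Within set 3 the difference from CKO-OLD passed the threshold (-0.94, edgeR adjusted p = 0.0322), where 18.7% of all genes tested passed it. It also passed with a term for library set (edgeR adjusted p = 0.0449), where 12.3% did. The difference from OLD within set 3 was -0.95. CKO-YOUNG had 97.8, 80.8 and 76.6 CPM, overlapping the 167, 102 and 79.8 CPM of CON-YOUNG, and YOUNG had 86.5, 120 and 89.2 CPM.

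Fzd8 was lower in the young knockout and higher in the old one, without passing the threshold at either age. CKO-YOUNG had 35.0, 30.6 and 36.8 CPM of Fzd8, wholly below the 54.3, 44.6 and 57.1 CPM of CON-YOUNG, as 3.19% of genes tested were. CKO-OLD had 39.0, 46.8 and 80.6 CPM, against 30.5, 40.2 and 29.1 CPM in OLD, where CKO-OLD 1 lay below OLD 2. The differences were -0.61 (SE 0.34, edgeR adjusted p = 0.989) and 0.74 (SE 0.34, edgeR adjusted p = 0.602). The test of the difference between them gave -1.35 with an edgeR unadjusted p of 0.0127 and an adjusted p of 0.963, as 4.81% of all genes tested had an unadjusted p under 0.05, so it did not hold after correction. The old difference was 0.46 within set 3, 0.18 with a term for library set and 0.37 without CKO-OLD 3, the library highest in Fzd8 (edgeR adjusted p = 1 in each). Of the 9 chondrocyte markers, 2 had a positive and 6 a negative log2 difference in young cells (summed levels of 488 to 1423 CPM in CKO-YOUNG and 622.3 to 4681 CPM in CON-YOUNG) and 7 had a positive one in old cells (404.9 to 10340 CPM in CKO-OLD and 704.2 to 1104 CPM in OLD). None of them passed the threshold, and the part of these markers in the Fzd8 differences was not tested. Col9a1 was at 0 throughout CKO-YOUNG and OLD, and Matn1 was at 0 throughout both CKO-YOUNG and CON-YOUNG. The iBP-treated cells held 40.2, 37.8 and 22.5 CPM and YOUNG 27.7, 25.8 and 61.9 CPM.

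Fzd9 is of interest in bone because mice that lack it form less bone. Its spread within single groups was wide. CKO-OLD libraries gave 2.61, 0.771 and 23.9 CPM, against 0.449, 1.11 and 0.239 CPM in OLD. The level was 1.88, 5.19 and 1.24 CPM in CKO-YOUNG, against 1.94, 0.993 and 3.53 CPM in CON-YOUNG. It was 4.1, 2.02 and 1.54 CPM after iBP and 0.495, 0.0725 and 7.9 CPM in YOUNG. CKO-OLD 3 alone carried most of the CKO-OLD mean. CKO-OLD against OLD gave 3.92 (SE 1.46, edgeR adjusted p = 0.542), with overlapping groups, and 1.49 without CKO-OLD 3. CON-OLD-iBP lay wholly above OLD, as did 14.3% of genes tested (2.09, SE 1.36, edgeR adjusted p = 0.374), but the difference was -0.17 with a term for library set and 1.19 within set 3. The knockout difference over both ages was 2.14 (SE 0.96, edgeR unadjusted p = 0.0418, adjusted p = 0.561), and 0.93 without CKO-OLD 3.

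Some libraries were high in both Fzd9 and the sum of the chondrocyte markers. The 9 markers summed to 16230 CPM in YOUNG 3, 11770 CPM in CON-OLD-iBP 1, 10340 CPM in CKO-OLD 3 and 4681 CPM in CON-YOUNG 3. These 4 libraries were among the 5 highest for Fzd9, the other being CKO-YOUNG 2 with a sum of 1346 CPM. By group the sum was 404.9 to 10340 CPM in CKO-OLD, with none of the 9 at 0, and 812.7 to 11770 CPM in CON-OLD-iBP, with Matn1 at 0, against 704.2 to 1104 CPM in OLD, with Col9a1 at 0. Lower in the order the ranks parted: OLD 1 and OLD 3 ranked 16 and 17 in Fzd9 but 10 and 9 in the marker sum. Col2a1 reached 13550 CPM in YOUNG and weighed most in the highest sum. Comp averaged 900 CPM in OLD, the group with the lowest mean Fzd9. The part of these markers in the Fzd9 differences was not tested. Fzd8 and Fzd9 correlated at r = 0.693 over the 18 libraries.

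**Figure D3:**
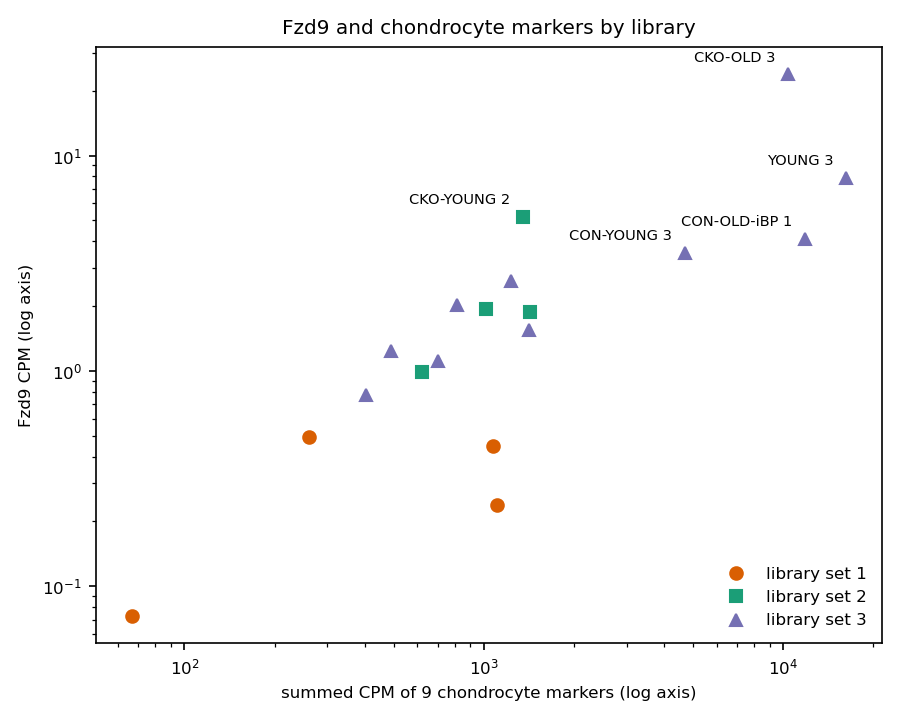
Fzd9 level in CPM (vertical log axis) against the summed CPM of 9 chondrocyte markers (horizontal log axis) in each of the 18 libraries, coloured by library set. The 5 libraries highest in Fzd9 are named. CKO-OLD 3, YOUNG 3, CON-OLD-iBP 1 and CON-YOUNG 3 are also the 4 highest in the marker sum, and CKO-YOUNG 2 is not.

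Across the family most log2 differences in the knockout were positive, and Fzd10 alone passed the edgeR threshold, in the comparison over both ages. In CKO-YOUNG against CON-YOUNG, 8 of 10 log2 differences were positive with a median of 0.41, beside a median of -0.01 over all genes and 47.5% positive. No member passed the threshold in edgeR, 0.127% of genes did, and 2 members had an unadjusted p under 0.05 (5.48% of genes). In CKO-OLD against OLD, 9 of 10 were positive with a median of 0.75, beside -0.01 and 48.2%. No member passed in edgeR, 0.00604% of genes did, and 4 had an unadjusted p under 0.05 (8.16% of genes). DESeq2 called 1 member in each of these comparisons, Fzd10 both times, where it called 1.39% and 1.09% of genes. Over both ages 9 of 10 were positive, with a median of 0.57 beside -0.03, and 3 had an unadjusted p under 0.05 (8.38% of genes). Some signs depended on library set. Over both ages Fzd1 (-0.06), Fzd5 (-0.09) and Fzd8 (-0.21) were negative with a term for library set, and the other members positive. Within set 3 Fzd5 (-0.03), Fzd6 (-0.04) and Fzd8 (-0.08) were negative, and the others positive. In CKO-OLD against OLD within set 3, Fzd1 (-0.26), Fzd5 (-0.01) and Fzd7 (-0.11) were negative, and the others positive. In the test of the young minus the old knockout effect no member passed in edgeR (0% of genes) or DESeq2 (0.29% of genes), and 1, Fzd8, had an unadjusted p under 0.05.

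In the remaining comparisons no member passed in edgeR. OLD against YOUNG had 3 positive and 7 negative differences with a median of -0.21 beside -0.03 over all genes. There 1 member had an unadjusted p under 0.05 (3.34% of genes), 0% of genes passed in edgeR, and DESeq2 called 1 member and 0.247% of genes. CON-OLD-iBP against OLD had 6 positive differences, 1 unadjusted p under 0.05 (23.4% of genes) and 1 member called by DESeq2, where edgeR called 0.0241% and DESeq2 12.4% of genes. CON-OLD-iBP against CKO-OLD had 9 negative differences with a median of -0.61, 4 unadjusted p under 0.05 (19.6% of genes) and 3 members called by DESeq2 (Fzd2, Fzd4 and Fzd5), where edgeR called 1.29% and DESeq2 8.58% of genes. CKO-OLD against CKO-YOUNG had 5 of each sign, 3 unadjusted p under 0.05 (24.5% of genes) and 3 members called by DESeq2 (Fzd3, Fzd7 and Fzd10), where edgeR called 0.7% and DESeq2 12.1% of genes. CON-YOUNG against YOUNG had 6 positive differences, 2 unadjusted p under 0.05 (23% of genes) and 2 members called by DESeq2 (Fzd2 and Fzd7), where edgeR called 5.55% and DESeq2 12.5% of genes. The DESeq2 shares in the last 4 comparisons are high for all genes, and the members' counts are to be read against them.

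By mean level, CKO-YOUNG was the highest group for Fzd2, Fzd3, Fzd4, Fzd7 and Fzd10. OLD was the lowest group for Fzd3, Fzd7, Fzd8, Fzd9 and Fzd10. No groups next to each other in the order of any member passed the threshold in edgeR, with a smallest adjusted p of 0.160 for CON-YOUNG over OLD in Fzd10. Groups farther apart did: over the 15 pairs of groups there were 11 calls, 9 of them with CKO-YOUNG as the higher group. CKO-YOUNG exceeded OLD by 6.27 in Fzd10 (edgeR adjusted p = 0.00877), 3.28 in Fzd3 (0.0176), 1.39 in Fzd7 (0.0163) and 1.31 in Fzd2 (0.0162), where 12.1% of all genes passed. It exceeded YOUNG in Fzd2 (1.70) and Fzd7 (1.38), where 9.94% passed, and CON-OLD-iBP in Fzd2 (1.49), Fzd3 (2.47) and Fzd4 (3.86), where 19.4% passed. The other 2 calls were Fzd4 (-3.39) and Fzd5 (-1.04), lower in CON-OLD-iBP than in CON-YOUNG, where 10.1% passed. These pairs of groups differ in more than 1 of age, line, Kdm2b and treatment, and in the mix of library sets.

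The genes that work with the receptors were taken from lists of the pathway. Of 14 tested Wnt ligands, 14 had positive differences in the knockout over both ages (9 of 14 in young and 14 of 14 in old cells). The median was 1.20, beside 46.2% positive among all genes, and Wnt6 passed the threshold. The same OLD libraries also gave 12 of 14 negative against YOUNG (median -1.13) and 10 of 14 positive in CON-OLD-iBP against OLD (0.60). The level of OLD thus enters each of these comparisons, and the list was not refitted with library set. Wnt7b had 0 reads in CON-YOUNG. Wnt7a had 0 reads in OLD and also in CKO-YOUNG, where CON-YOUNG averaged 0.114 CPM. With these 2 at the bound that 3 counts over the group allow, the median was also 1.20. CKO-YOUNG had 6.48, 6.96 and 3.56 CPM of Wnt6, against 0, 0.202 and 0 CPM in CON-YOUNG. CKO-OLD had 1.41, 3.47 and 2.7 CPM, against 0.0435, 0.124 and 0.0597 CPM in OLD. The difference was 5.70 (SE 0.97, edgeR adjusted p = 0.0138), and every knockout library lay above every CON-YOUNG and OLD library, as did 0.948% of genes tested. Of 11 tested genes for Frizzled trafficking and cysteine-rich decoys, 9 were positive. The median was 0.42, also with the 3 that had a group at 0 reads put at their bound. Frzb, which encodes a secreted Frizzled-related protein that binds Wnt, passed. CKO-YOUNG had 4.95, 3.62 and 24.8 CPM of Frzb, against 2.64, 2.02 and 1.63 CPM in CON-YOUNG. CKO-OLD had 15, 24.5 and 28.6 CPM, against 3.23, 5.22 and 3.07 CPM in OLD (2.49, SE 0.45, edgeR adjusted p = 0.0211). Of 15 planar cell polarity genes, 13 were positive with a median of 0.23, and Celsr2, a flamingo cadherin, passed at 2.99 (SE 0.61, edgeR adjusted p = 0.0434). CKO-YOUNG had 5.04, 4.52 and 5.57 CPM of Celsr2, against 0.869, 1.2 and 0.0718 CPM in CON-YOUNG. CKO-OLD had 1.93, 3.27 and 3.61 CPM, against 0.13, 0.531 and 0.328 CPM in OLD. Each knockout group thus lay above the group it was set against, as 5.32% of genes tested did in young and 8.9% in old cells. With a replicate block these 3 genes kept their sign and none passed (edgeR adjusted p = 0.0546 for Wnt6, 0.187 for Frzb and 0.137 for Celsr2), and DESeq2 called all 3. The Wnt6 call was also lost without OLD 1 (0.0779), without OLD 3 (0.0832) and without set 1, Frzb lost its call under 9 of 22 alternatives and Celsr2 under 14 of 22.

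In the other lists no gene passed in that comparison. The 7 co-receptors had 5 positive differences with a median of 0.24. The 9 tested genes of Frizzled turnover, which include the ligases Znrf3 and Rnf43 that remove Frizzled from the surface, had 5 positive with a median of 0.02. The 17 Dishevelled and intracellular partners had 11 positive (median 0.05), and norrin with its Fzd4 partner Tspan12 had 2 of 2 (median 0.39), made up of 0 of 2 in young cells (median -0.21) and 2 of 2 in old cells (0.98). The 5 other secreted antagonists had 4 positive (median 0.56), the 17 beta-catenin target genes 13 (median 0.65) and the 7 genes of the Frizzled relative Smoothened and its Hedgehog partners 5 (median 0.19), which were 1 of 7 in young cells (median -0.18) and 6 of 7 in old cells (0.86). The turnover genes had 4 of 9 positive in young cells (median -0.13) and 6 of 9 in old cells (0.17), and these differences between ages were not tested as lists. 

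**Figure D4:**
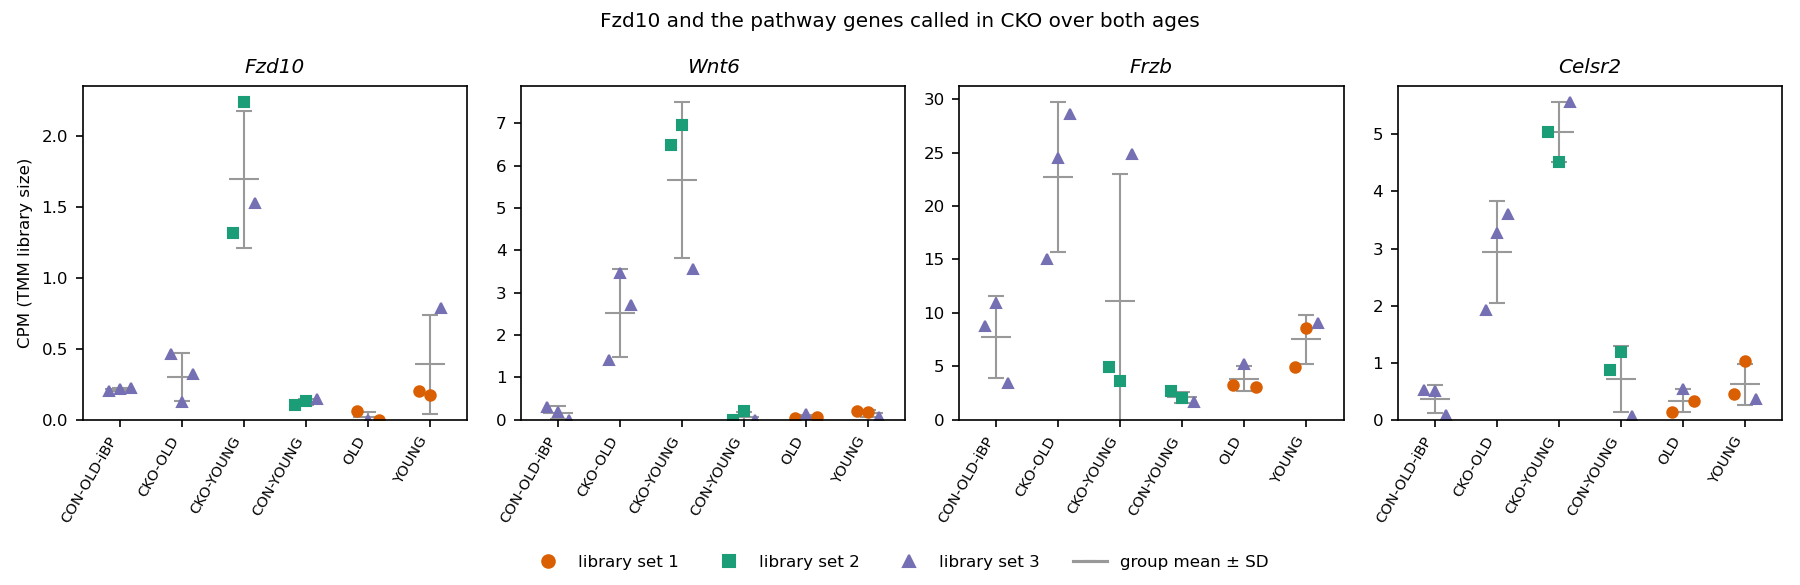
Levels in CPM (vertical axes, linear, starting at 0) of Fzd10 and of Wnt6, Frzb and Celsr2, the pathway genes past the threshold in the knockout over both ages, in the 3 libraries of each group. Points are libraries, coloured by library set, and grey lines are the group mean ± SD (n = 3). CKO-OLD and CKO-YOUNG stand above OLD and CON-YOUNG for Wnt6, and CKO-YOUNG 3, at 24.8 CPM, lies apart from the other CKO-YOUNG libraries for Frzb.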

How the data were processed

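RNA sequencing of cultured femoral osteoblasts gave 18 libraries in 6 groups of 3, placed by the titles. The deposited table holds raw read counts per gene symbol, with no normalization by the authors. The submitters' processing notes name FastQC, Trim Galore, HISAT2 and mm39. Versions, counter, annotation and strand were not given in the sources used here. Overlapping genes may therefore share reads. The members, gene lists and tests were chosen with earlier results of these data known. From the deposited counts, genes were kept by filterByExpr (minimum count 10, minimum total 15), scaled by TMM and tested with edgeR 4.0.16 (robust quasi-likelihood F test, 1 coefficient per group, 12 residual degrees of freedom, two-sided, Benjamini-Hochberg over 16566 genes, threshold 0.05) in R 4.3.3. Log2 CPM for correlations used a prior count of 2. Every member was named, with 3 genes of highest Pearson r for each member called in the main comparisons, and up to 4 called genes of smallest p per list; Fzd10os was added after its values were seen. Alternatives were DESeq2 1.42.0, other scalings and filters, library-set terms, a replicate block and leaving out each library. Same-numbered libraries of CKO-YOUNG and CON-YOUNG deviated together (r = 0.193, 0.237 and 0.305), as did those of CON-YOUNG and YOUNG (0.146, 0.245 and 0.31). Yet CKO-YOUNG 1 deviated most like CON-YOUNG 2, and CON-YOUNG 1 most like YOUNG 2. Replicates 3 of these groups lie in set 3 and the others do not, so this check cannot tell pairing from library set. No label states a pairing. The edgeR steps were tested on simulated counts. Intervals and floors cover counting error only. Figures were drawn with matplotlib 3.10.9 and Python 3.11.15.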

Additional observations from a re-analysis of the deposited data

How the results depend on the processing

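The number of Frizzled genes past the threshold depended on the test more than on scaling or filters. DESeq2 called 1 member each in OLD against YOUNG, CKO-YOUNG against CON-YOUNG, CKO-OLD against OLD and CON-OLD-iBP against OLD, 2 in CKO over both ages and in CON-YOUNG against YOUNG, and 3 in CON-OLD-iBP against CKO-OLD and in CKO-OLD against CKO-YOUNG. In CKO over both ages, edgeR called 0 members with only the groups compared, with the replicate block, with a term for library set and without set 1, and 2 within set 3, with 1 in the main fit. In CON-OLD-iBP against CKO-OLD it called 2 with a term for library set, where 12.3% of all genes tested passed. Within set 3 it called 3 in that comparison, where 18.7% of all genes tested passed. Leaving out 1 library at a time gave 0 to 1 members in CKO over both ages (1 without OLD 1, where 24 of all genes passed) and in CON-OLD-iBP against CKO-OLD (1 without CON-OLD-iBP 2, where 512 passed), 0 to 2 in CKO-OLD against CKO-YOUNG (2 without CKO-YOUNG 3, where 2655 of all genes passed), 0 to 4 in CON-YOUNG against YOUNG (4 without CON-YOUNG 3, where 2924 passed, and 1 without YOUNG 3, where 1242 passed) and 0 in the other 5. Where a set held 1 sample of a group, its spread was assumed to be that of the others. Over all genes, DESeq2 called 41 genes where edgeR called 0 in OLD against YOUNG, 230 against 21 in CKO-YOUNG against CON-YOUNG, 181 against 1 in CKO-OLD against OLD, 2056 against 4 in CON-OLD-iBP against OLD, 412 against 88 over both ages, 1421 against 213 in CON-OLD-iBP against CKO-OLD, 1999 against 116 in CKO-OLD against CKO-YOUNG and 2063 against 919 in CON-YOUNG against YOUNG. RLE or upper quartile scaling, no filter, and a filter of 1 CPM moved no count of members. Fzd10 reached 1 CPM only in CKO-YOUNG (1.32, 2.24 and 1.53 CPM), with at most 0.792 CPM elsewhere (YOUNG 3). It thus passed the 1 CPM filter only through the group where it is highest, so that filter cannot check its call. The replicate block (4.06 for Fzd10 over both ages) changed no other call of a Frizzled gene. For members with an unadjusted p under 0.05 or separate groups in a comparison, of 526 values under alternatives, 482 kept their direction and side of the threshold, 24 passed it newly, 15 lost it (all Fzd10 over both ages, beside 4 losses for Wnt6, 9 for Frzb and 14 for Celsr2) and 5 changed sign: Fzd9 in CON-OLD-iBP against OLD (-0.17), Fzd4 (0.01) and Fzd6 (-0.03) in CKO-OLD against CKO-YOUNG, and Fzd7 in CON-YOUNG against YOUNG (-0.08), each with a term for library set, and Fzd7 also within set 3 (-0.15). Over all members and comparisons, library set in the fit changed the sign of 46 of 260 values, 41 of them outside that selection, such as Fzd3 in CON-YOUNG against YOUNG (-1.02 with the term and -2.34 within set 3, 1.23 without). The cause was not tested. Depth limits Fzd10 most, with 0 to 127 reads per library.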

Other observations

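Outside the knockout over both ages, 6 genes of the pathway lists passed the threshold. In CON-YOUNG against YOUNG, where 5.55% of all genes tested passed it in edgeR, the Wnt-binding receptor Ryk (0.90, SE 0.13, edgeR adjusted p = 0.0141), the Frizzled relative Smo, which transmits Hedgehog signals (1.23, SE 0.26, edgeR adjusted p = 0.0173), and the polarity scaffold Scrib (0.75, SE 0.19, edgeR adjusted p = 0.0346) were higher in CON-YOUNG. Ryk averaged 239 ± 24.0 CPM in CON-YOUNG and 128 ± 1.59 CPM in YOUNG (SD, n = 3 each), and 284 ± 7.25 CPM in CKO-YOUNG. Wnt7b and Corin, a protease with cysteine-rich domains of the Frizzled kind, were listed at 0 in all 3 CON-YOUNG libraries and averaged 1.39 ± 0.794 and 0.201 ± 0.127 CPM in YOUNG (edgeR adjusted p = 0.0344 and 0.0184). Those groups differ in library set as well as in line, with 2 CON-YOUNG libraries in set 2 and 2 YOUNG libraries in set 1, and with a term for library set none of the 5 passed (edgeR adjusted p = 0.212 to 0.597). The differences in that fit were 0.69 for Ryk, 0.43 for Smo and 0.37 for Scrib. With the replicate block the edgeR adjusted p was 0.149 for Ryk, 0.222 for Smo, 0.18 for Scrib and 0.182 for Wnt7b.

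Ryk was also lower in CKO-OLD than in CKO-YOUNG (179.8 ± 4.43 CPM in CKO-OLD, -0.66, SE 0.13, edgeR adjusted p = 0.0392), a call lost under 9 of 15 alternatives, with differences from -0.68 to -0.56 over the 15. Gas1, a Hedgehog co-receptor, was lower in CON-OLD-iBP (51.8 ± 27.4 CPM) than in CKO-OLD (243 ± 54.5 CPM), by edgeR at -2.23 (SE 0.50, adjusted p = 0.0470), a call lost under 6 of 15 alternatives, among them no filter and leaving out any 1 CKO-OLD library, with differences from -2.73 to -1.92 over the 15.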
